A study of Bos taurus with 6 samples.

Results

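The microRNAs (miRNAs) of the miR-193, miR-365 and miR-455 families were described in cultured bovine fat cells. Every row of the small RNA table whose name, without its arm, is miR-193a, miR-193b, miR-365 or miR-455 was taken, a rule that uses no measured value. These are 8 of 771 known miRNA rows and of 2213 rows in all. They were bta-miR-193a (a row that names no arm), bta-miR-193a-3p, bta-miR-193a-5p, bta-miR-193b, bta-miR-365-3p, bta-miR-365-5p, bta-miR-455-3p and bta-miR-455-5p, and the prefix bta- is dropped below. The adipocytes were Holstein preadipocytes induced with insulin, dexamethasone, rosiglitazone and IBMX, and the preadipocytes are the fat cell precursors of the same breed. Both came from adipose tissue, at passage 4 to 6 in medium with 10% serum and 1% antibiotics, and each group had 3 libraries of RNA of 18 to 30 nt. Neither the length of the induction nor the fat depot is given in the sources used here. Whether the replicates were separate animals or cultures is not given either, so p-values reflect the spread between these libraries, which may be technical.

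A miRNA is cut from a hairpin precursor whose 5p and 3p strands can both be kept, and the kept strand guides the repression of messenger RNAs that pair with its seed. In mouse, the clustered miR-193b and miR-365 genes were described as induced in brown adipocyte differentiation and as holding back the muscle programme, although mice lacking the cluster were later described as forming brown fat. Mouse miR-455 was described as a cold- and BMP7-induced miRNA of brown and beige fat that acts on the HIF inhibitor HIF1AN, on RUNX1T1 and on necdin. In human white fat, miR-193b was described as lowering secretion of the chemokine CCL2. Rosiglitazone activates PPARG, the master regulator of the fat cell.

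Among the RefSeq genes (assembly ARS-UCD2.0) 6 matched these names, namely MIR193A, MIR193A-2, MIR193B, MIR365-1, MIR365-2 and MIR455. MIR193B and MIR365-1 are each other's nearest miRNA gene, and both overlap the gene LOC100849865. MIR365-2 lies near MIR193A at another locus, with MIR2333 as the nearest miRNA gene of each. MIR193A-2 overlaps the zinc finger gene ZNF623, and MIR455 the collagen gene COL27A1. The count table does not record which gene a row was counted from, so reads of miR-365 cannot be divided between MIR365-1 and MIR365-2. Nor is it stated whether the row miR-193a comes from MIR193A or MIR193A-2, so its sum with miR-193a-3p and its ratio to that row may join products of 2 genes. Its family column gives mir-193 for miR-193a-3p, miR-193a-5p and miR-193b, and no family for the row miR-193a. Its type column gives mature for miR-193b and hairpin for the other 7, terms that no label explains.

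The 8 rows together took 0.126% ± 0.028 of the miRNA reads in adipocytes, against 0.0833% ± 0.00953 in preadipocytes (SD, n = 3 each), of 14525284 to 22283754 miRNA reads per library. Levels are counts per 1e6 miRNA reads (CPM) after scaling with edgeR's TMM factors, where 1 read was worth 0.0473 to 0.0815 CPM. Values of single libraries are given in the order of replicates 1, 2 and 3. Preadipocyte replicate 3 stood apart from the other preadipocyte libraries on both leading principal components. On the first (44.1% of the variance) it scored 3.35, between the adipocytes at -16.0 to -13.0 and the other preadipocyte libraries at 18.1 and 21.1, and on the second (24.21%) it scored -22.2, while the other 5 libraries scored -2.78 to 11.9. Exon, intron, repeat and intergenic rows held 8.21% to 12.0% of the reads in adipocytes, against 18.5%, 18.9% and, in replicate 3, 5.29% in preadipocytes. The scaling sets the zero line, since the median log2 difference of all tested miRNAs was -0.02 with TMM factors, -0.31 with upper-quartile factors and 0.62 with library totals alone. The share of the 8 rows given above uses library totals alone, so its difference between the groups includes this general shift. In these bulk cultures fewer cells of a type and less RNA per cell cannot be told apart.

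The design asks which miRNAs differ between adipocytes and preadipocytes. Of the 8 rows, miR-193a and miR-193a-3p were higher in every adipocyte library than in every preadipocyte library, 3.10-fold and 9.22-fold in the fit, but neither passed the adjusted threshold. The brown-fat cluster members miR-193b and miR-365-3p and both arms of miR-455 did not pass either, with estimates below 0. The filter on low counts kept 7 of the 8, all but miR-365-5p. In edgeR's quasi-likelihood test, with Benjamini-Hochberg (BH) adjustment over all 414 tested miRNAs, 0 of the 7 passed 0.05, where 6.28% of all tested miRNAs did. Without adjustment 2 of the 7 had p below 0.05, against 34.1% of all tested miRNAs. DESeq2 on the same rows called 2 of the 7, namely miR-193a and miR-193a-3p, where it called 23.4% of all tested miRNAs. The groups lay fully apart for 2 of the 7 with adipocytes higher and for 1 with adipocytes lower, against 24.2% and 20.5% of all tested miRNAs.

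**Figure D1:**
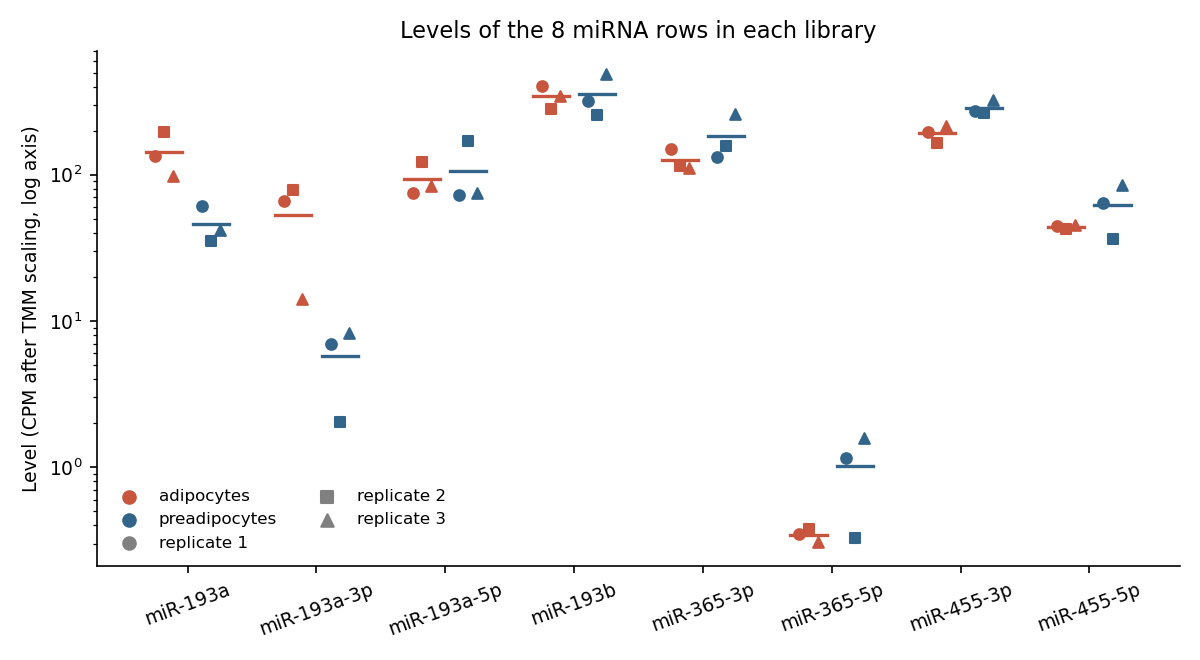
Level of each of the 8 rows (CPM after TMM scaling, log axis) in adipocytes (red) and preadipocytes (blue), with 1 point per library and a bar at the group mean of 3 libraries. The adipocyte points of miR-193a and miR-193a-3p lie above all preadipocyte points, those of miR-455-3p lie below them, and the groups overlap for the other 5 rows.

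Among the miR-193 rows, miR-193a summed to 8767 reads over the adipocyte libraries, against 2009 over the preadipocyte libraries. Its levels were 134, 197 and 97.5 CPM in adipocytes, against 61.5, 34.9 and 41.5 CPM in preadipocytes. The lowest adipocyte library lay above the highest preadipocyte library, also per miRNA read without scaling factors. The log2 difference was 1.63 (SE 0.40, edgeR adjusted p = 0.0606), with means of 142.8 ± 50.2 CPM in adipocytes, against 46.0 ± 13.8 CPM in preadipocytes (SD, n = 3 each). Without preadipocyte replicate 3, the library that stood apart, it was 1.57 (SE 0.44) and passed the threshold (edgeR adjusted p = 0.0467). That fit passed 31.8% of all tested miRNAs, against 6.28% with all libraries. The row miR-193a did not pass when the same 414 rows were kept in that fit (edgeR adjusted p = 0.0532), a check added after seeing the data, nor without any other library.

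The row miR-193a-3p, the 3p strand of the hairpin, summed to 3283 reads over the adipocyte libraries, against 262 over the preadipocyte libraries, of which replicate 2 had 25. Its levels were 66.4, 78.9 and 14.2 CPM in adipocytes, against 6.90, 2.04 and 8.31 CPM in preadipocytes. Adipocyte replicate 3 was well below the other adipocyte libraries, yet above every preadipocyte library. The log2 difference was 3.20 (SE 0.82, edgeR adjusted p = 0.0637). Without adipocyte replicate 3 it was 3.49 (edgeR adjusted p = 0.0733). Without preadipocyte replicate 3 it was 3.58. It passed with the filter run again (edgeR adjusted p = 0.0457), where 31.8% of all tested miRNAs passed, and not with the same rows kept (edgeR adjusted p = 0.0509). It did not pass without any other library.

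The opposite strand gave another picture. For miR-193a-5p, 1504, 2571 and 1642 reads were found in adipocytes, against 1057, 2073 and 1228 reads in preadipocytes. The means were 93.4 ± 25.0 CPM in adipocytes, against 105 ± 55.0 CPM in preadipocytes, and the groups overlapped. Preadipocyte replicate 2 was the highest of all 6 libraries at 169 CPM. The log2 difference of -0.17 (SE 0.44, edgeR adjusted p = 0.775) turned to 0.32 without it, which did not pass either (edgeR adjusted p = 0.52).

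The most abundant of the 8 rows was miR-193b, the brown-fat cluster member, with 8118, 5979 and 6715 reads in adipocytes, against 4681, 3127 and 7976 reads in preadipocytes. Its levels were 402, 283 and 343 CPM in adipocytes, against 320, 255 and 487 CPM in preadipocytes. The highest value was that of preadipocyte replicate 3, and the groups overlapped. The log2 difference was -0.05 (SE 0.33, edgeR adjusted p = 0.914). It was 0.25 without preadipocyte replicate 3 and 0.61 with library totals alone, and neither passed the threshold (edgeR adjusted p = 0.49 and 0.208).

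Because miR-193a and miR-193b belong to 1 family, the counting may divide reads between their rows in a way the table does not record. The 4 miR-193 rows were therefore also summed, with miR-193a-5p, the opposite strand of miR-193a-3p, among them. No sum of miR-193b with only miR-193a and miR-193a-3p was fitted. The sum of the 4 rows stood at 631 ± 78.4 CPM in adipocytes, against 512 ± 87.6 CPM in preadipocytes. Its log2 difference of 0.30 (SE 0.24) did not pass (edgeR adjusted p = 0.399). It was 0.98 with library totals alone and 0.054 with upper-quartile factors, and passed in neither (edgeR adjusted p = 0.0558 and 0.881). The sum of miR-193a and miR-193a-3p alone, chosen after their values were seen, came to 199.3, 276 and 112 CPM in adipocytes, against 68.4, 37.0 and 49.9 CPM in preadipocytes (log2 difference 1.92, SE 0.44). It missed the threshold (edgeR adjusted p = 0.0521). Among the other scalings it passed with upper-quartile factors, with RLE factors and with library totals alone (edgeR adjusted p = 0.0453, 0.0497 and 0.023). It also passed with DESeq2 (adjusted p = 3.55e-04), with a minimum mean of 10 CPM and with known miRNAs only (edgeR adjusted p = 0.041 and 0.0482), and not without a filter (edgeR adjusted p = 0.0521). Leaving out preadipocyte replicate 3 gave 1.90 and a pass (edgeR adjusted p = 0.043). With the miR-193 rows kept apart, 31.8% of all tested miRNAs passed without that library. Leaving out any other library gave no pass for the sum (edgeR adjusted p = 0.0741 to 0.172).

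The make-up of the miR-193 reads can be read as shares within each library. The rows miR-193a and miR-193a-3p together made up 30.3% ± 9.92 of the miR-193 reads in adipocytes, against 10.3% ± 3.91 in preadipocytes, and miR-193b made up 54.9% ± 11.7 in adipocytes, against 68.1% ± 12.2 in preadipocytes (SD, n = 3 each). The share of miR-193a-5p was 14.8% ± 3.503 in adipocytes, against 21.5% ± 13.2 in preadipocytes. The groups lay apart for the combined share of miR-193a and miR-193a-3p and overlapped for miR-193b and miR-193a-5p.

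**Figure D2:**
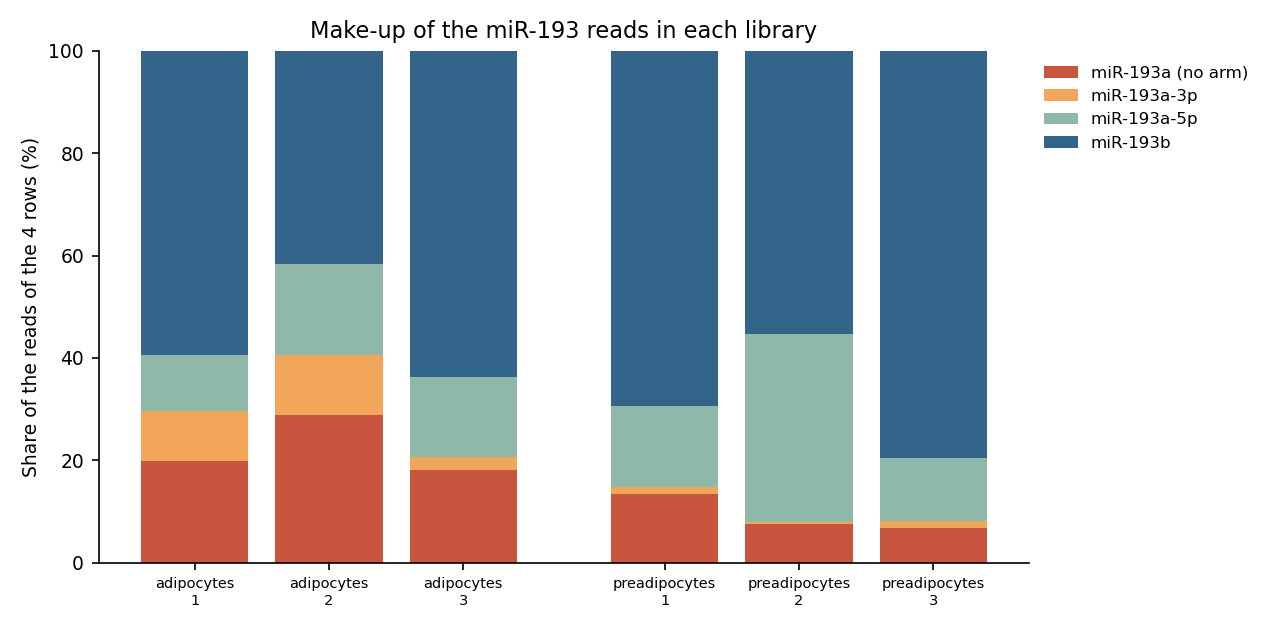
Stacked bars of the share (%) of each of the 4 miR-193 rows in the summed miR-193 reads, 1 bar per library, adipocytes at the left and preadipocytes at the right. The rows miR-193a and miR-193a-3p average 30.3% of the bar in adipocytes and 10.3% in preadipocytes, and miR-193b is the largest single row in all 6 libraries.

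Ratios of rows within a library do not depend on the scaling between libraries. For the tests on the log2 scale 0.5 read was added to each count. The miR-193a hairpin gave 1.12, 1.54 and 5.93 reads of 5p per read of 3p in adipocytes, against 10.5, 82.9 and 9.03 in preadipocytes. By the rows that name an arm, the 5p strand was the more abundant in every library. All 3 adipocyte ratios lay below all 3 preadipocyte ratios. The row miR-193a, which names no arm, is left out of this ratio. It held more reads than miR-193a-5p in every adipocyte library, and fewer in every preadipocyte library. Whether its reads are of the 3p strand is not stated, so the more abundant strand in adipocytes is not settled. The difference in the log2 ratio was -3.18, with means of 1.12 ± 1.27 in adipocytes, against 4.30 ± 1.78 in preadipocytes. It was -2.16 without preadipocyte replicate 2, whose ratio rests on 25 reads of 3p, and -3.90 without adipocyte replicate 3. The exact permutation p, two-sided, was 0.1, the smallest that 3 libraries against 3 can give, and 0.233 after BH adjustment over the 7 ratios computed.

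For miR-365 and miR-455 the 3p strand was the more abundant in every library. The log2 ratio of 5p to 3p for miR-365 was -8.40 ± 0.26 in adipocytes, against -7.63 ± 1.00 in preadipocytes (exact permutation p = 0.4, BH-adjusted 0.467, n = 3 each), and it rests on at most 26 reads of miR-365-5p in a library. For miR-455 it was -2.11 ± 0.15 in adipocytes, against -2.29 ± 0.49 in preadipocytes (exact permutation p = 0.9, BH-adjusted 0.9, n = 3 each).

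Set against miR-193b, the 3 miR-193a rows together gave log2 ratios that overlapped between the groups, -0.29 ± 0.69 in adipocytes, against -1.15 ± 0.83 in preadipocytes (exact permutation p = 0.3, BH-adjusted 0.42, n = 3 each). Without the 5p row, a choice made after seeing the values, the ratios to miR-193b were 0.498, 0.974 and 0.325 in adipocytes, against 0.214, 0.145 and 0.102 in preadipocytes, with no overlap. Their difference was 1.88 on the log2 scale (exact permutation p = 0.1, BH-adjusted 0.233). The rows miR-193a and miR-193a-3p did not keep 1 ratio to each other. There were 2.02, 2.49 and 6.88 reads of miR-193a per read of miR-193a-3p in adipocytes, against 8.91, 17.2 and 5.00 in preadipocytes (exact permutation p of the log2 ratio = 0.2, BH-adjusted 0.35).

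**Figure D3:**
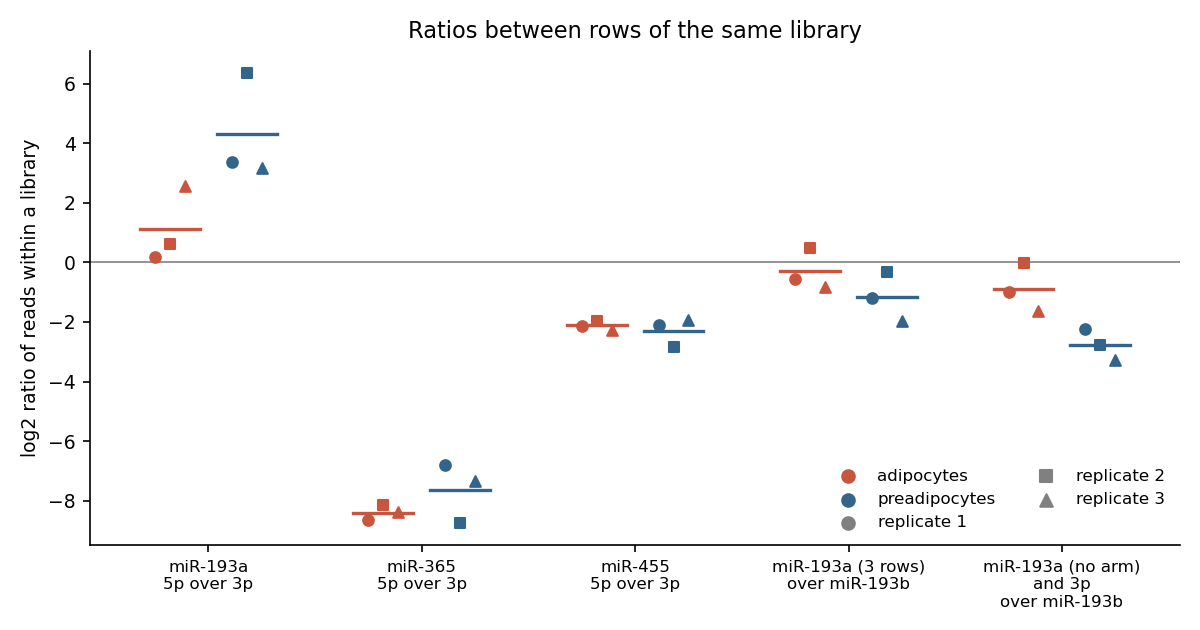
Log2 ratio of reads between rows of the same library, 1 point per library and a bar at the group mean, adipocytes (red) left of preadipocytes (blue). The groups are apart for miR-193a 5p over 3p (means 1.12 in adipocytes and 4.30 in preadipocytes) and for miR-193a with miR-193a-3p over miR-193b, and overlap for the miR-365 and miR-455 strands and for all 3 miR-193a rows over miR-193b.

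A further readout of the same libraries, the Rfam family row for mir-193, held more reads than the 4 miR-193 rows together in every library. It had 25676, 17730 and 11854 reads in adipocytes, against 29377, 15723 and 24212 reads in preadipocytes. On the same CPM scale that is 1273, 839 and 606 in adipocytes, against 2008, 1281 and 1479 in preadipocytes, so that the adipocyte libraries lay lower, by a narrow margin. Per 1e6 miRNA reads without scaling factors it was 1708, 1173 and 620 in adipocytes, against 1684, 1082 and 1087 in preadipocytes, and the groups overlapped. Per read of the 4 rows the Rfam row held 1.88, 1.23 and 1.12 reads in adipocytes, against 4.36, 2.78 and 2.42 reads in preadipocytes. The Rfam row and the 4 rows together came to 1538 ± 403 CPM in adipocytes, against 2100 ± 364 CPM in preadipocytes, and the groups overlapped. These values were not tested. Whether reads of the Rfam row come from the same miRNAs is not stated, so the miR-193 rows may leave out reads of the family. The Rfam rows for mir-365 and mir-455 held at most 27 and 2 reads in a library.

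**Figure D4:**
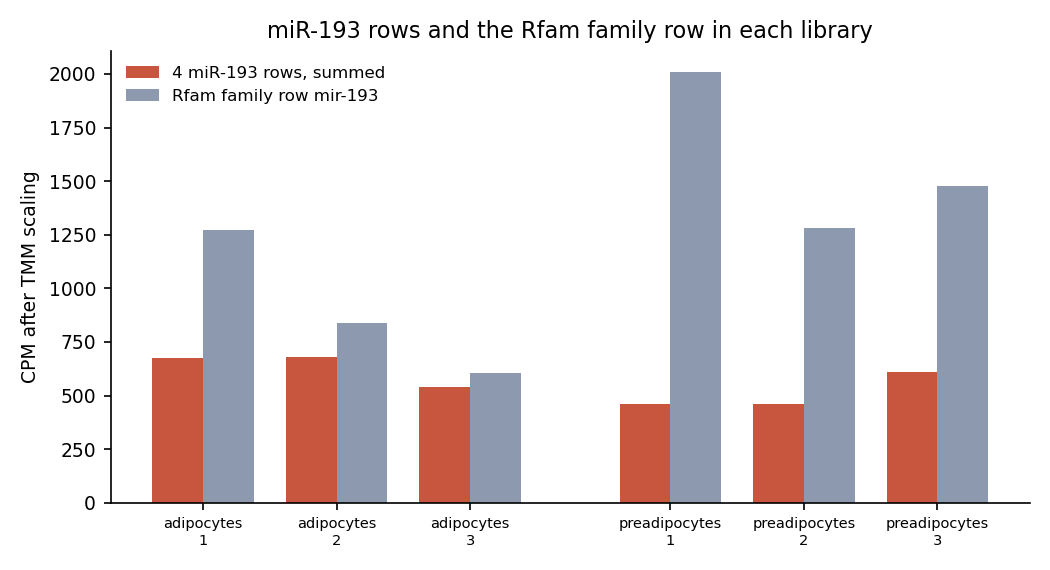
CPM after TMM scaling of the 4 miR-193 rows summed (red) and of the Rfam family row mir-193 (grey) in each library, adipocytes left of preadipocytes. The grey bar exceeds the red one in all 6 libraries, by 1.12 to 1.88 times in adipocytes and 2.42 to 4.36 times in preadipocytes.

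The main strand of miR-365, miR-365-3p, was counted 3034, 2407 and 2175 times in adipocytes, against 1946, 1926 and 4284 times in preadipocytes. Its levels were 150.4, 114 and 111 CPM in adipocytes, against 133.02, 157 and 262 CPM in preadipocytes. Adipocyte replicate 1 lay within the preadipocyte range, and preadipocyte replicate 3 was the highest library. The log2 difference of -0.55 (SE 0.35) did not pass (edgeR adjusted p = 0.28), and it was -0.22 without preadipocyte replicate 3 and 0.12 with library totals alone. The passenger strand miR-365-5p had 7, 8 and 6 reads in adipocytes, against 17, 4 and 26 reads in preadipocytes. It did not pass the filter, and when every row was tested its log2 difference was -1.45 (SE 0.69, edgeR adjusted p = 0.257).

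Of the miR-455 strands, miR-455-3p had 3935, 3499 and 4236 reads in adipocytes, against 3979, 3225 and 5285 reads in preadipocytes. Its levels were 195, 166 and 217 CPM in adipocytes, against 272, 263 and 323 CPM in preadipocytes, so that all adipocyte libraries lay lower. The log2 difference was -0.57 (SE 0.25, edgeR adjusted p = 0.162). Per miRNA read without scaling factors the groups overlapped and the log2 difference was 0.056 (edgeR adjusted p = 0.888). The 5p strand had 903, 902 and 884 reads in adipocytes, against 931, 449 and 1392 reads in preadipocytes. Its adipocyte levels were close together, at 44.2 ± 1.34 CPM, and its preadipocyte levels, at 61.8 ± 24.3 CPM, lay on both sides of them (log2 difference -0.48, SE 0.37, edgeR adjusted p = 0.373). The difference was -0.18 without preadipocyte replicate 3, -0.78 without preadipocyte replicate 2 and 0.18 with library totals alone, and passed in none of these.

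**Figure D5:**
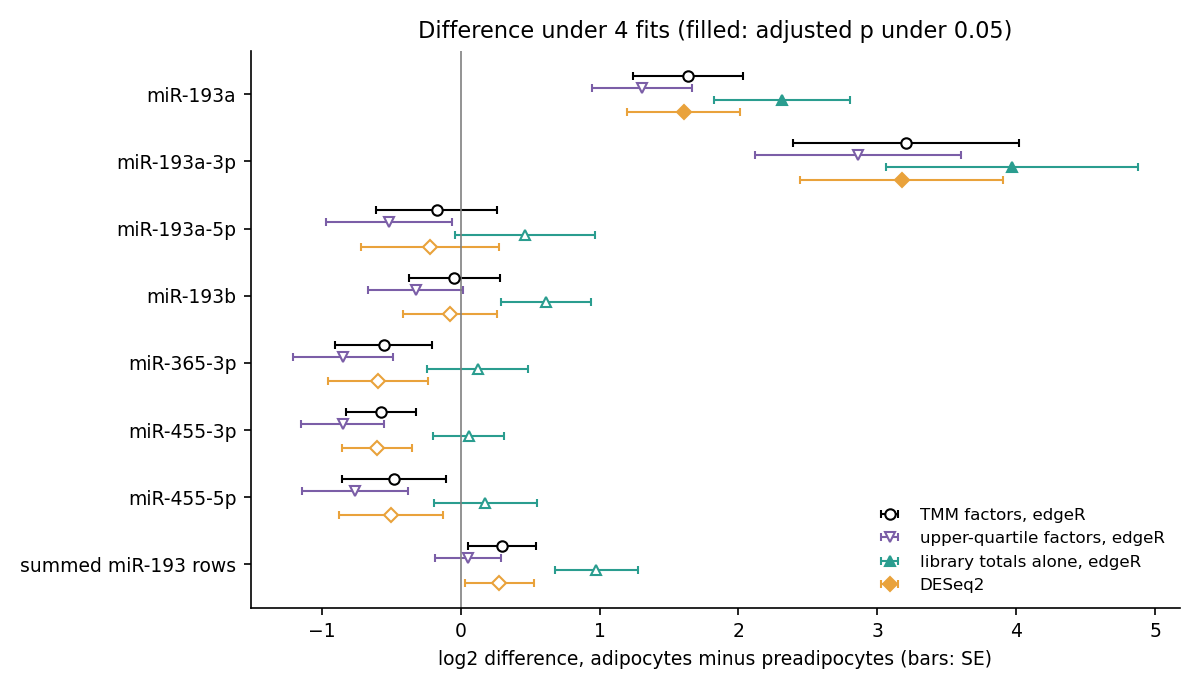
Log2 difference of adipocytes minus preadipocytes (bars: SE) for the 7 tested rows and the summed miR-193 rows, with TMM factors (black), upper-quartile factors (purple) and library totals alone (green) in edgeR and with DESeq2 (orange). Filled symbols mark an adjusted p below 0.05, which in these 4 fits miR-193a and miR-193a-3p reach with library totals alone and with DESeq2 and no other row reaches. The other 5 tested rows lie below 0 with TMM factors and above 0 with library totals alone.

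In order of level, miR-193b and miR-455-3p came first and second in both groups. In adipocytes every value of miR-193b lay above every value of miR-455-3p, while in preadipocytes their ranges overlapped. The third place was held by miR-193a in adipocytes, at 142.8 CPM, and by miR-365-3p in preadipocytes, at 184 CPM, where miR-193a was sixth. From miR-455-3p down to miR-455-5p, neighbours in the adipocyte order overlapped in their ranges. Last in both groups was miR-365-5p, at 0.344 ± 0.036 CPM in adipocytes, against 1.03 ± 0.642 CPM in preadipocytes. Among the known miRNAs tested, miR-193b ranked 65 by mean level and miR-193a-3p, the rarest of the 7, ranked 153.

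Likeness of pattern was described by Pearson's r of log2 CPM over the 6 libraries. These libraries form 2 groups and share their depth and scaling, so r largely follows any difference between the groups. The known miRNAs most like miR-193a were miR-33a (r = 0.992), whose host gene is the sterol regulator SREBF2, miR-708 (r = 0.965) and miR-148a (r = 0.95). Of these, miR-708 and miR-148a passed the threshold as higher in adipocytes (log2 differences 3.43 and 1.68, edgeR adjusted p = 0.0198 and 0.0309). Without adipocyte replicate 1, 2 or 3 or preadipocyte replicate 2 neither passed, with edgeR adjusted p of 0.0625 to 0.0978 for miR-708 and 0.0649 to 0.14 for miR-148a. With the same rows kept miR-708 did pass without adipocyte replicate 3 (edgeR adjusted p = 0.0465). Without preadipocyte replicate 1 miR-148a did not pass (edgeR adjusted p = 0.0772). Most like miR-193a-3p were miR-101 (r = 0.986), miR-17-3p (r = 0.978) and miR-136 (r = 0.975). The pattern of miR-455-3p was closest to miR-423-3p (r = 0.988), miR-342 (r = 0.962) and miR-21-5p (r = 0.959), the most abundant miRNA of these cells.

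For miR-193b the nearest were miR-2285au (r = 0.962), miR-3600 (r = 0.904), whose gene overlaps that of miR-22, and miR-9-3p (r = 0.898). The row miR-365-3p, which may hold reads of both miR-365 genes, came at r = 0.657, place 41 of 364. The miR-455 rows, of another locus, were as near or nearer in most pairs. For miR-193b, r was 0.752 with miR-455-5p (place 26) and 0.365 with miR-455-3p. For miR-365-3p, r was 0.742 with miR-455-3p and 0.672 with miR-455-5p. With the miR-193a rows, r of miR-365-3p was -0.638 (no arm), -0.348 (3p) and -0.195 (5p). For miR-365-3p the nearest were miR-450a (r = 0.953), the endothelial miR-126-3p (r = 0.946) and miR-302d (r = 0.945). The level of miR-126-3p was 66.8, 42.2 and 42.8 CPM in adipocytes, against 112, 137.2 and 446 CPM in preadipocytes, and the part of endothelial cells in the level of miR-365-3p was not tested. Nearest to miR-193a-5p were miR-485, miR-32 and miR-2898 (r = 0.903, 0.877 and 0.866), and nearest to miR-455-5p were miR-2285cl, miR-450b and miR-128 (r = 0.985, 0.971 and 0.941). Between the rows themselves, r was 0.942 for miR-193a with miR-193a-3p, 0.668 for the 2 strands of miR-455 and -0.299 for the 2 strands of miR-193a.

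Other miRNAs described in brown or beige fat were taken from a list. Of those described as favouring it, 13 rows were tested, of which 0 passed as higher, 1 passed as lower and 12 did not pass. Among all tested miRNAs 6.28% passed in either direction. The median log2 difference of the 13 rows was 0.59, against -0.02 for all tested miRNAs, and with library totals alone these medians were 1.25 and 0.62. The abundant miR-378, from an intron of PPARGC1B, averaged 4449 ± 1715 CPM in adipocytes, against 2331 ± 1075 CPM in preadipocytes (log2 difference 0.93, edgeR adjusted p = 0.177). The other abundant one, miR-26a, averaged 1312 ± 358 CPM in adipocytes, against 1428 ± 229 CPM in preadipocytes. Its relative miR-26b averaged 1036 ± 12.9 CPM in adipocytes, against 533 ± 179 CPM in preadipocytes (0.96, edgeR adjusted p = 0.0788). The row that fell was miR-129-3p, better known from neurons, at a few reads per adipocyte library, 0.133 ± 0.0775 CPM in adipocytes, against 1.90 ± 0.878 CPM in preadipocytes (-3.77, edgeR adjusted p = 0.0293). That call held without preadipocyte replicate 3 and was lost without any other library (edgeR adjusted p = 0.0798 to 0.14).

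Of the miRNAs described as restraining brown or beige fat, 13 rows were tested, of which 1 rose, 1 fell and 11 did not pass. Among all tested miRNAs 6.28% passed in either direction. The median log2 difference of the 13 rows was -0.09, and it was 0.56 with library totals alone. The row that rose was miR-199a-3p (8.70, edgeR adjusted p = 2.62e-04), at 6757 ± 931 CPM in adipocytes, against 16.2 ± 6.83 CPM in preadipocytes, and it passed without each library in turn. One of its genes overlaps that of miR-3604, which averaged 28.9 ± 18.9 CPM in adipocytes, against 3375 ± 1082 CPM in preadipocytes, so the split of reads between these rows is uncertain. The row that fell was miR-133a, a muscle miRNA that represses the brown-fat regulator PRDM16 in mouse, at 1.24, 1.75 and 1.89 CPM in adipocytes, against 6.70, 4.32 and 6.97 CPM in preadipocytes (-1.88, SE 0.34, edgeR adjusted p = 0.0293). Every adipocyte library lay below every preadipocyte library. The call was lost without any library but preadipocyte replicate 3 (edgeR adjusted p = 0.0649 to 0.14). The most abundant, let-7i and miR-27b, did not pass (edgeR adjusted p = 0.284 and 0.761).

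No miRNA marks adipocytes alone, so the labels could be checked only in part. Among all tested miRNAs 6.28% passed in either direction. Of 7 adipocyte-linked miRNAs, miR-148a passed as higher, as given above, and 6 did not pass. Among these miR-143 averaged 24214 ± 4814 CPM in adipocytes, against 30171 ± 7966 CPM in preadipocytes, and miR-107 averaged 195.7 ± 4.91 CPM in adipocytes, against 82.6 ± 27.003 CPM in preadipocytes. The 5 muscle rows summed to 36.9 to 41.3 CPM in adipocytes, against 29.8 to 64.95 CPM in preadipocytes. The 6 blood rows summed to 0.568 to 1.23 CPM in adipocytes, against 1.96 to 4.97 CPM in preadipocytes, and the 5 epithelial rows to 0.460 to 0.710 CPM in adipocytes, against 0.547 to 1.06 CPM in preadipocytes. The 7 neural rows summed to 5.93 to 6.79 CPM in adipocytes, against 8.55 to 12.0 CPM in preadipocytes, and the 2 rows of the endothelial miR-126 to 43.0 to 67.9 CPM in adipocytes, against 114 to 454.8 CPM in preadipocytes. Among them miR-133a (muscle) and miR-129-3p (neural) passed as lower, as given above. None of these marker rows was at 0 in all 6 libraries, and their part in the differences was not tested.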

How the data were processed

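The authors sequenced small RNA of 3 adipocyte and 3 preadipocyte samples. The submitters' processing notes list Bowtie2. For its version, the genome build, the miRNA release and the treatment of multiply matching reads, nothing is given in the sources used here. Count columns, as deposited, hold whole, unnormalized numbers of reads, per the file headers. In the deposited TPM columns each count was divided by a single constant of its library, with no division by length (within 0.006 for 8950 of 8976 values above 0), and zero counts appear as 0.001. The table held 19292757 to 25801117 reads per library.

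The 771 known and 108 predicted miRNAs were tested on their counts in R 4.3.3 with edgeR 4.0.16: TMM factors, filterByExpr at its defaults, glmQLFit, glmQLFTest, 1 term for the group, two-sided. Adjustment by Benjamini-Hochberg ran over the 414 rows left by the filter, 49 of them predicted, with 0.05 as the threshold. Rfam and piRNA rows and the 4 genome-feature rows (5.29% to 18.9% of a library) stayed out of the fit and of library sizes. Ratios were compared by exact permutation of the libraries in SciPy 1.17.1. Alternatives were other scalings, DESeq2 1.42.0, other filters, known miRNAs alone, a replicate block, leaving out each library and limma 3.58.1 on log2 of the deposited TPM with 0.5 added. All 8 rows are described, with the 3 known miRNAs of most similar pattern for each tested row, and from each list 2 by abundance and 2 by p. The members and lists were chosen with earlier results of these data known. On data simulated for this comparison, over 392 miRNAs, changes of 2-fold were recovered in 16.7%, of 4-fold in 64.6%, of 8-fold in 95.8% and of 32-fold in 95.8% of cases, with 6 false calls among 200 unchanged miRNAs. In the simulation 48 miRNAs were changed at each size, a larger share in sum than the 6.28% called in the data. Recovery in the data may therefore be lower.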

Additional observations from a re-analysis of the deposited data

How the results depend on the processing

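Calls for miR-193a and miR-193a-3p depended on the rows tested, the scaling and the tool. Both passed the threshold with library totals alone (log2 differences 2.31 and 3.97), with DESeq2 (1.61 and 3.18), with a minimum mean of 10 CPM (1.46 and 3.05), with known miRNAs only (1.59 and 3.17), and with limma on the deposited TPM, an alternative added after seeing the data (2.16 and 3.41). The number of the 7 tested rows past the threshold was 2 in each of these, against 0 in the main fit, and 0 to 2 when 1 library was left out. Neither miR-193a nor miR-193a-3p passed with upper-quartile factors (edgeR adjusted p = 0.0601 and 0.051) or with RLE factors (edgeR adjusted p = 0.0592 and 0.0609). Without a filter neither passed (edgeR adjusted p = 0.0595 and 0.0684). The direction of both held in every alternative run, with 1.35 to 1.89 for miR-193a and 2.77 to 3.58 for miR-193a-3p over the fits without 1 library, and 1.33 to 1.90 and 2.80 to 3.57 when these fits kept the same 414 rows, a form added after seeing the data. Of all tested miRNAs 6.28% passed, and 11.8% with upper-quartile factors, 23.4% with library totals alone, 23.4% with DESeq2, 21.1% with a minimum of 10 CPM, 16.2% with known miRNAs only, 2.16% without a filter and 28.0% with limma on TPM. The share was 31.8% without preadipocyte replicate 3, and 0.214% to 1.73% without any other single library. With the same rows kept, 0.242% passed without adipocyte replicate 1 or 2 or preadipocyte replicate 2, 3.38% without adipocyte replicate 3, 0.966% without preadipocyte replicate 1 and 30.0% without preadipocyte replicate 3. The calls were 16 higher and 10 lower in adipocytes, but 15 and 34 with upper-quartile factors, 88 and 9 with library totals alone, and 50 and 47 with DESeq2. The cause of these shifts was not tested.

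Small differences changed sign. With library totals alone the values were 0.46 for miR-193a-5p, 0.61 for miR-193b, 0.12 for miR-365-3p, 0.056 for miR-455-3p and 0.18 for miR-455-5p, and with limma on TPM 0.47 for miR-193a-5p, 0.56 for miR-193b, 0.059 for miR-365-3p and 0.16 for miR-455-5p. The value of miR-193b was 0.048 without a filter. Over the fits without 1 library, miR-193a-5p ranged from -0.42 to 0.32, miR-193b from -0.27 to 0.25 and the 5p to 3p log2 ratio of miR-455 from -0.10 to 0.36. With the same rows kept, miR-193a-5p reached 0.34 without preadipocyte replicate 2, and miR-193b 0.075 without adipocyte replicate 2 and 0.26 without preadipocyte replicate 3. None of these passed the threshold.

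Libraries with the same replicate number did not deviate together (correlations 0.04, -0.31 and 0.02). With the replicate number as a block, 0.242% of all tested miRNAs passed and 0 of the 7, with 1.61 for miR-193a and 3.11 for miR-193a-3p, and the sum of these rows gave 1.86 (edgeR adjusted p = 0.137). Depth limits miR-365-5p, which had at most 26 reads in a library.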
